A study of Helianthus annuus with 12 samples.

Results

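Lipid transfer proteins and proteins of the bifunctional inhibitor superfamily were followed in developing seeds of 2 sunflower (Helianthus annuus) cultivars. A gene was included when the deposited description of its best database match named a lipid transfer protein or a bifunctional inhibitor and when it reached 1 FPKM in at least 3 of the 12 libraries. FPKM counts a gene's fragments relative to its length and to all mapped fragments. Such a description was given to 82 genes beside gene47905 and gene70268, which the rule leaves out. Of these 82 genes 13 had no row in the expression table, 19 stayed below the FPKM minimum (highest value 3.87 FPKM) and 50 were included, of 30020 genes that reached the minimum and 48882 with values. Only 2 of the 50, gene12691 and gene44211, reached the minimum through the libraries of 1 group alone (86-1 and L-1-OL-1 at 17 DAF, respectively). This favours a difference for that group, so their differences are given as values without a test, and the counts below that include them are marked.

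The seeds came from the cultivars 86-1 and L-1-OL-1 and were taken 17 or 27 days after flowering (DAF), which gave 4 groups of 3 libraries. The labels set the series up as a comparison of sunflowers rich and poor in oleic acid, and call 17 DAF a stage at which oleic acid builds up quickly and 27 DAF one at which it holds steady. They do not say which cultivar is rich in oleic acid, name no treatment or transgene, and describe the tissue as seed without separating embryo, seed coat and hull. Whether the 3 libraries of a group stem from different plants is not labelled, and the p-values then speak of the spread between libraries, which may be technical.

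Plant non-specific lipid transfer proteins are small secreted proteins in which a helical fold, held by cysteine bridges, encloses a pocket for fatty acids and other lipids. They are known for carrying cutin and wax precursors to the outer wall and for antimicrobial activity, and some are food or pollen allergens. The bifunctional inhibitor superfamily shares the cysteine pattern of this fold and also takes in the 2S albumins stored in seeds and inhibitors of trypsin and amylase. Glycolipid transfer proteins move glycosphingolipids inside the cell and have an unrelated fold, and they are included here through their name. By description the 50 genes were 8 non-specific lipid transfer proteins, 17 proteins described as plant lipid transfer protein/Par allergen after the pollen allergens of Parietaria, 18 proteins of the bifunctional inhibitor superfamily and 7 glycolipid transfer proteins. These are names of database matches and not shown activities. For 45 of the 50 genes the match was 100% identical, and the aligned stretch ran from 81 to 236 residues. It covered 115 to 118 residues in the non-specific lipid transfer proteins, 85 to 195 in the Par allergen group, 81 to 231 in the bifunctional inhibitor group and 189 to 236 in the glycolipid transfer proteins.

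The libraries held FPKM totals of 605655 to 683903. Read numbers are unknown from FPKM, and the commonest ratio of very low values between libraries put the relative depth at 0.796 to 1.22 times that of replicate 1 of 86-1 at 17 DAF. Genes named for seed markers (11S globulin, legumin, oleosin, 2S albumin and late embryogenesis abundant proteins, 99 genes) took 4.07% to 17.5% of the total in every library, and 56 to 74 of them reached 1 FPKM. The libraries of L-1-OL-1 at 17 DAF stood apart from each other. Replicate 1 of that group had a Pearson's r over genes of 0.861 and 0.784 with replicates 2 and 3, which had 0.9445 with each other, while libraries within the other groups had 0.9305 to 0.974 (genes are not independent replicates). With the 3 libraries of 86-1 at 17 DAF it had 0.8603, 0.833 and 0.843, all above its value with replicate 3 of its own group. Over the 50 genes r was 0.8655 with replicate 2 of its own group and 0.8645 with replicate 1 of 86-1 at 17 DAF, while the median absolute log2 difference was 0.908 with the former (1.174 with replicate 3) and 0.547 with the latter. Counts are therefore also given without it.

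The 50 genes together took a share of the FPKM total that differed widely between the groups. The share was 0.455%, 0.293% and 0.390% in replicates 1, 2 and 3 of 86-1 at 17 DAF, and 2.44%, 2.94% and 1.95% at 27 DAF (values of 3 libraries are given in this order throughout). In L-1-OL-1 it was 0.480%, 1.42% and 0.888% at 17 DAF and 0.204%, 0.244% and 0.237% at 27 DAF. All 3 libraries of 86-1 at 27 DAF lay above every other library, and all 3 of L-1-OL-1 at 27 DAF lay below every other. One gene, gene62341, made up 73.9% to 81.2% of the 50 genes' FPKM in 86-1 at 27 DAF. Without it the other 49 genes took 0.468% to 0.550% of the total in 86-1 at 27 DAF, against 0.284% to 0.384% at 17 DAF. The corresponding L-1-OL-1 shares ran from 0.364% to 0.7503% at 17 DAF and from 0.196% to 0.242% at 27 DAF. Between 36 and 44 of the 50 genes reached 1 FPKM in any library of the first 3 groups (both 86-1 groups and the earlier L-1-OL-1 group), against 23 to 27 for L-1-OL-1 at 27 DAF. At that stage 12 of the 50 genes (24%, gene12691 and gene44211 among them) were listed at 0 in all 3 L-1-OL-1 libraries. Of all 30020 tested genes 5.71% were. In each other group 1 of the 50 was listed at 0, which for L-1-OL-1 at 17 DAF was gene12691.

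**Figure D1:**
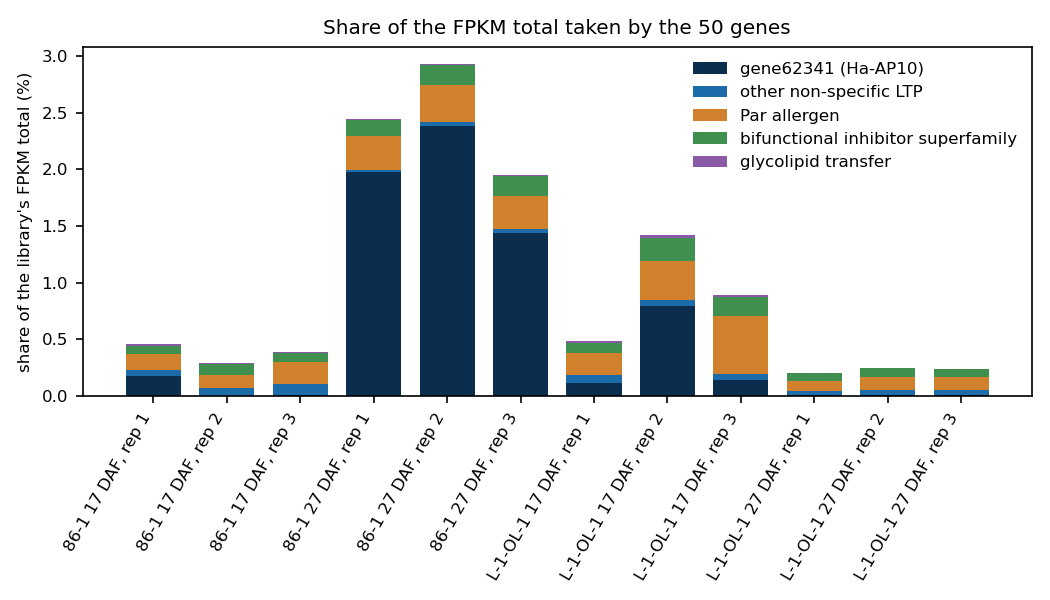
Bars give the percentage of each library's FPKM total taken by the 50 genes, split by the class of the database match, with gene62341 drawn separately; each bar is 1 library. The bars of 86-1 at 27 DAF reach 1.95% to 2.94% and consist mostly of gene62341, and those of L-1-OL-1 at 27 DAF end at 0.204% to 0.244%.

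**Figure D2:**
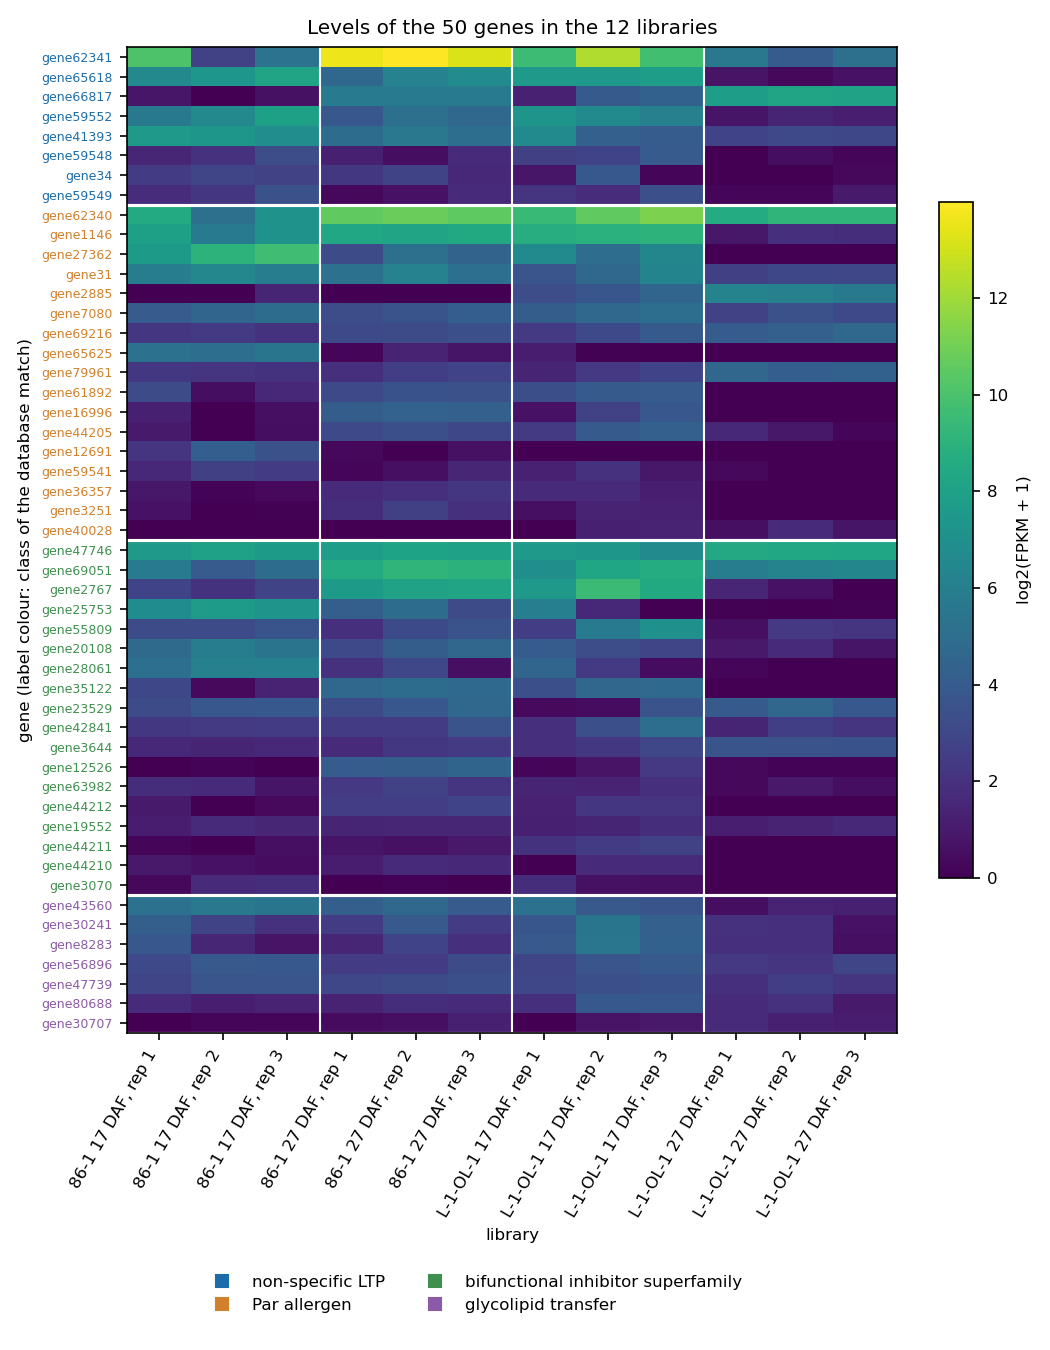
Each row is 1 of the 50 genes, ordered by class and then by mean level, and each column is 1 library; colour gives log2(FPKM + 1). The last 3 columns, L-1-OL-1 at 27 DAF, are dark for most rows, and gene62341 is brightest in the 3 columns of 86-1 at 27 DAF.

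Among the 8 non-specific lipid transfer proteins, gene62341 was the most abundant of all 50 genes and had opposite stage differences in the cultivars. Its best match is Ha-AP10, an antifungal lipid transfer protein known from sunflower seeds. It had 1104, 5.68 and 38.6 FPKM in 86-1 at 17 DAF and 12865, 16309 and 9761 at 27 DAF. Its values in L-1-OL-1 were 770.03, 5051 and 875 FPKM at 17 DAF and 47.5, 16.1 and 35.6 at the later stage. Every library of 86-1 at 27 DAF was above every other library of the series, and the 3 libraries of 86-1 at 17 DAF were spread over a 194-fold range. Each difference here and below is a change in log2(FPKM + 1) ± its standard error, a scale that makes the changes of weakly expressed genes look smaller, and each p-value is that of limma, adjusted over all 30020 tested genes. The gene rose from 17 to 27 DAF in 86-1 (7.58 ± 1.397, adjusted p = 0.00335) and fell in L-1-OL-1 (-5.59 ± 1.397, adjusted p = 0.0074). The latter difference was -4.63 with replicate 1 of L-1-OL-1 at 17 DAF as the only library of its group. At 27 DAF the gene was higher in 86-1 by 8.67 ± 1.397, adjusted p = 0.000289. At 17 DAF it was lower in 86-1 (-4.50 ± 1.397, adjusted p = 0.0312), with overlapping groups. This call was lost without 86-1 17 DAF replicate 2 or 3 (adjusted p = 0.139 and 0.104) or L-1-OL-1 17 DAF replicate 2 (adjusted p = 0.13). It was also lost with libraries rescaled by median of ratios (0.0536), with no filter on low values (0.0654) and with only the 6 libraries compared (0.122). The 17 DAF difference was -3.54 with replicate 1 of L-1-OL-1 at that stage as the only library of its group. For the genes that follow, lost calls are listed only for fits without 1 library.

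The other abundant members of this class did not share that pattern. Gene66817 rose in both cultivars and was lower in 86-1 at both stages. It had 0.8198, 0 and 0.528 FPKM in 86-1 at 17 DAF and 51.1, 50.6 and 51.7 at 27 DAF. The L-1-OL-1 libraries held 1.46, 14.7 and 19.2 FPKM at 17 DAF and 225, 286 and 262 at 27 DAF. The 3 libraries of 86-1 at 27 DAF were nearly equal, above all of L-1-OL-1 at 17 DAF and below all of L-1-OL-1 at 27 DAF, and no pair of the 4 groups overlapped. Its stage difference was 5.21 ± 0.60, adjusted p = 0.000236 in 86-1 and 4.81 ± 0.60, adjusted p = 0.000102 in L-1-OL-1. The difference between these did not pass the test (0.41 ± 0.85, adjusted p = 0.768), and its sign turned on single libraries. It was 1.36 without replicate 1 of L-1-OL-1 at 17 DAF (adjusted p = 0.017), -0.16 without replicate 3 (adjusted p = 0.899) and -1.50 with replicate 1 as the only library of that group (adjusted p = 0.0322). The cultivar difference was -2.71 ± 0.60, adjusted p = 0.00524 at 17 DAF and -2.30 ± 0.60, adjusted p = 0.00751 at 27 DAF.

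Gene65618, gene59552 and gene41393 were highest at 17 DAF and low in L-1-OL-1 at 27 DAF. Gene65618 had 95.9, 160.1 and 283 FPKM in 86-1 at 17 DAF and 25.4, 72.1 and 105 at 27 DAF, and 181, 187 and 217 and then 0.645, 0.248 and 0.577 in L-1-OL-1. All libraries of L-1-OL-1 at 27 DAF were below 1 FPKM, far under every other library, so that the gene fell by 7.05 in that cultivar (-7.05 ± 0.48, adjusted p = 2.49e-06). In 86-1 the stages overlapped; the call there (-1.48 ± 0.48, adjusted p = 0.0498) was lost in 9 of the 12 fits without 1 library (highest adjusted p = 0.213, without replicate 3 of 86-1 at 17 DAF) and held without replicate 1 of 86-1 at 17 DAF, replicate 3 of 86-1 at 27 DAF or replicate 1 of L-1-OL-1 at 17 DAF. The cultivars differed by 5.31 ± 0.48, adjusted p = 2.91e-06 at 27 DAF.

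Gene59552 had 48.6, 96.6 and 249 FPKM in 86-1 at 17 DAF, 12.9, 35.2 and 26.01 at 27 DAF, and 151, 103 and 67.7 and 0.709, 1.73 and 1.24 in L-1-OL-1 at the 2 stages. It fell in both cultivars, with -5.56 ± 0.54, adjusted p = 2.1e-05 in L-1-OL-1 and -2.16 ± 0.54, adjusted p = 0.0158 in 86-1, the latter a call lost without 86-1 17 DAF replicate 2 or 3 (adjusted p = 0.052 and 0.0671) or 86-1 27 DAF replicate 1 (adjusted p = 0.077). Gene41393 had 183, 166 and 116 FPKM in 86-1 at 17 DAF and 29.7, 47.7 and 32.4 at 27 DAF, against 97.6, 18.7 and 15.6 and 5.95, 7.55 and 7.32 in L-1-OL-1. It was higher in 86-1 at both stages, with no overlap (2.27 ± 0.54, adjusted p = 0.00762 at 17 DAF and 2.22 ± 0.54, adjusted p = 0.00468 at 27 DAF). Its stage difference was -2.01 ± 0.54, adjusted p = 0.0106 in L-1-OL-1 and -2.05 ± 0.54, adjusted p = 0.0193 in 86-1, where the call was lost without 86-1 17 DAF replicate 2 (adjusted p = 0.0754) or 86-1 27 DAF replicate 1 or 3 (adjusted p = 0.0764 and 0.0579). The remaining members gene59548, gene59549 and gene34 stayed at or below 15.5 FPKM in every library.

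In the Par allergen group the most abundant gene was gene62340, whose identifier follows that of gene62341. It had 375, 35.4 and 141 FPKM in 86-1 at 17 DAF and 1549, 1764 and 1497 at 27 DAF. For L-1-OL-1 the values were 685, 1522 and 2436 FPKM at the first stage and 390.1, 574 and 577 at the second. It rose in 86-1 (3.68 ± 0.71, adjusted p = 0.00421) and was lower in 86-1 at 17 DAF (-3.45 ± 0.71, adjusted p = 0.00311), both without overlap. The stage difference in L-1-OL-1 did not pass (-1.43 ± 0.71, adjusted p = 0.121), nor did the difference at 27 DAF (1.66 ± 0.71, adjusted p = 0.0713). The first of these passed without replicate 1 of L-1-OL-1 at 17 DAF (adjusted p = 0.0468). The second passed without replicate 1 or 2 of 86-1 at 17 DAF (0.0315 and 0.0242) or replicate 1 of L-1-OL-1 at 17 DAF (0.0433). Gene1146 was at a high level in 3 groups and low in the other. It had 243, 56.4 and 141 FPKM in 86-1 at 17 DAF and 338, 291 and 357 at 27 DAF. In L-1-OL-1 it had 413, 495 and 523 FPKM at 17 DAF and 0.859, 2.67 and 2.53 at 27 DAF. The 3 libraries of L-1-OL-1 at 27 DAF were the lowest of the series, giving -7.36 ± 0.45, adjusted p = 1.72e-06 between the stages of L-1-OL-1 and 6.83 ± 0.45, adjusted p = 4.31e-07 between the cultivars at 27 DAF. At 17 DAF gene1146 was lower in 86-1 (-1.92 ± 0.45, adjusted p = 0.00748). Its stage difference in 86-1 was 1.39 ± 0.45, adjusted p = 0.0519, and passed without replicate 1 of 86-1 at 17 DAF (adjusted p = 0.00826) or replicate 1 of L-1-OL-1 at 17 DAF (0.0401).

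A second set in this group was highest in 86-1 at 17 DAF. Gene27362 had 198, 526 and 817 FPKM there and 8.38, 35.3 and 21.1 at 27 DAF, and in L-1-OL-1 103, 30.98 and 85.8 at 17 DAF and 0 in all 3 libraries at 27 DAF. No 2 libraries of different stages overlapped in either cultivar, and its differences were -4.49 ± 0.60, adjusted p = 0.000537 between the stages in 86-1 and 2.74 ± 0.60, adjusted p = 0.00459 between the cultivars at 17 DAF. No difference is given against L-1-OL-1 at 27 DAF, where it was listed at 0; limma gave adjusted p = 2.29e-05 for the fall in that cultivar. Gene65625 had 36.01, 32.1 and 42.8 FPKM in 86-1 at 17 DAF and 0.162, 1.52 and 0.724 at 27 DAF. L-1-OL-1 held 1.08, 0.0715 and 0 FPKM at 17 DAF and 0 in all 3 libraries at 27 DAF. All values above 3 FPKM were in 1 group of the 4, with differences of 4.85 ± 0.33, adjusted p = 1.19e-06 between the cultivars at 17 DAF and -4.46 ± 0.33, adjusted p = 1.63e-05 between the stages of 86-1. Gene12691 had 3.45, 17.02 and 9.92 FPKM in that group and 0.255, 0 and 0.522 in 86-1 at 27 DAF, and was listed at 0 in all 6 libraries of L-1-OL-1. It was included through its libraries of 86-1 at 17 DAF alone, and its difference from them is a description.

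A further set was highest in L-1-OL-1 at 27 DAF. Gene2885 had 0.0328, 0.0181 and 1.68 FPKM in 86-1 at 17 DAF and 0, 0.0166 and 0.0331 at 27 DAF, and 9.07, 12.4 and 22.7 and then 74.3, 66.2 and 50.1 in L-1-OL-1. All 6 libraries of L-1-OL-1 lay above all 6 of 86-1. The cultivar difference was -3.38 ± 0.40, adjusted p = 5.04e-05 at 17 DAF and -5.97 ± 0.40, adjusted p = 4.36e-07 at 27 DAF, and the gene rose in L-1-OL-1 (2.11 ± 0.40, adjusted p = 0.00144) while the stage difference in 86-1 did not pass (-0.48 ± 0.40, adjusted p = 0.479). Gene79961 had 23.2, 17.3 and 19.6 FPKM in L-1-OL-1 at 27 DAF, and its values in the other 9 libraries ran from 1.69 to 6.13. It was lower in 86-1 at 27 DAF (-1.96 ± 0.35, adjusted p = 0.000558) and rose in L-1-OL-1 (2.19 ± 0.35, adjusted p = 0.000471). Gene69216 shares its database match with gene2885, over a 100% identical stretch, against 94.7% for gene2885. It had 3.72, 4.13 and 3.14 FPKM in 86-1 at 17 DAF, 7.46, 8.04 and 9.85 at 27 DAF, and 4.12, 7.38 and 14.7 and 15.6, 18.4 and 24.5 in L-1-OL-1. Its rise in L-1-OL-1 (1.201 ± 0.35, adjusted p = 0.0166) was lost without L-1-OL-1 17 DAF replicate 2 (adjusted p = 0.0502) or L-1-OL-1 27 DAF replicate 3 (adjusted p = 0.0691). Its difference at 27 DAF (-1.10 ± 0.35, adjusted p = 0.0211) was lost without 86-1 27 DAF replicate 1 or 2 (adjusted p = 0.0668 and 0.0606) or L-1-OL-1 27 DAF replicate 3 (adjusted p = 0.085).

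Gene44205 stood for a set of lower-level genes that were near 0 in 86-1 at 17 DAF, higher in the 86-1 libraries of 27 DAF and the L-1-OL-1 libraries of 17 DAF and again low in L-1-OL-1 at 27 DAF. It had 1.04, 0.000451 and 0.458 FPKM in 86-1 at 17 DAF and 7.59, 9.72 and 7.19 at 27 DAF. Its values in L-1-OL-1 were 4.15, 14.7 and 18.6 FPKM at 17 DAF and 2.05, 0.866 and 0.122 at the later stage. It was lower in 86-1 at 17 DAF (-3.02 ± 0.49, adjusted p = 0.000594) and higher there at 27 DAF (2.29 ± 0.49, adjusted p = 0.00219). Gene16996, gene36357 and gene3251 of the same group likewise rose in 86-1 and fell in L-1-OL-1, where they were listed at 0 in every library at 27 DAF. At 27 DAF they had 18.5 ± 1.83, 2.91 ± 0.72 and 3.55 ± 1.41 FPKM in 86-1 (mean ± SD, n = 3). Gene61892 was also listed at 0 in L-1-OL-1 at 27 DAF, but was not near 0 in 86-1 at 17 DAF, with 8.12, 0.453 and 1.997 FPKM there and 7.43, 10.7 and 10.2 at 27 DAF, so that the stages overlapped. For gene61892 the rise in 86-1 (adjusted p = 0.044) was lost in 9 of the 12 fits without 1 library, with the highest adjusted p = 0.186 without replicate 2 of 86-1 at 17 DAF, and held without replicate 1 of 86-1 at 17 DAF, replicate 1 of L-1-OL-1 at 17 DAF or replicate 3 of L-1-OL-1 at 17 DAF. The last 4 genes are outside the rule for named genes and were chosen after their values were seen. The other 4 genes of the group reached at most 89.5 FPKM.

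Of the 18 genes of the bifunctional inhibitor superfamily, gene2767 ran in opposite directions in the cultivars, like gene62341. It had 6.09, 3.07 and 6.41 FPKM in 86-1 at 17 DAF and 198, 267 and 287 at 27 DAF. The L-1-OL-1 libraries held 179.9, 729 and 355 FPKM at 17 DAF and 1.82, 0.596 and 0 at 27 DAF. No 2 groups overlapped within a cultivar or within a stage. The gene rose in 86-1 (5.38 ± 0.49, adjusted p = 6.56e-05) and fell in L-1-OL-1 (-7.77 ± 0.49, adjusted p = 1.97e-06), and so was lower in 86-1 at 17 DAF (-5.92 ± 0.49, adjusted p = 4.99e-06) and higher at 27 DAF (7.23 ± 0.49, adjusted p = 4.89e-07). Gene69051 took the same course at a less extreme scale. It had 55.1, 15.4 and 29.99 FPKM in 86-1 at 17 DAF and 383, 562 and 511 at 27 DAF. For L-1-OL-1 the values were 124, 308 and 400.3 FPKM at the first stage and 58.8, 75.5 and 85.8 at the second. Its differences were 3.97 ± 0.49, adjusted p = 0.000342 between the stages of 86-1 and -1.76 ± 0.49, adjusted p = 0.0126 between those of L-1-OL-1. The latter was -0.77 with replicate 1 of L-1-OL-1 at 17 DAF as the only library of its group. Between the cultivars the differences of gene69051 were -3.03 ± 0.49, adjusted p = 0.000547 at 17 DAF and 2.71 ± 0.49, adjusted p = 0.000657 at 27 DAF, and none of its 4 pairs of groups overlapped.

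Gene35122 and gene12526 were high in 86-1 at 27 DAF. Gene35122 had 7.22, 0.291 and 1.48 FPKM in 86-1 at 17 DAF and 25.3, 29.4 and 26.9 at 27 DAF. L-1-OL-1 held 9.69, 23.4 and 26.7 FPKM at 17 DAF and 0 in all 3 libraries at 27 DAF. It rose in 86-1 by 3.24 ± 0.55, adjusted p = 0.00208. Gene12526 had 0, 0.0819 and 0 FPKM in 86-1 at 17 DAF and 15.7, 16.8 and 21.5 at 27 DAF, against 0.192, 0.677 and 3.95 and 0.233, 0.0949 and 0.0826 in L-1-OL-1. The 3 libraries of 86-1 at 27 DAF lay above the other 9, with differences of 4.20 ± 0.40, adjusted p = 8.56e-05 between the stages of 86-1 and 4.05 ± 0.40, adjusted p = 5.95e-06 between the cultivars at 27 DAF. Its closest database match came from cardoon (Cynara cardunculus) at 72% identity, and its role in sunflower is not given.

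Gene25753 and gene28061 were highest in 86-1 at 17 DAF and near 0 in L-1-OL-1 at 27 DAF. Gene25753 had 112, 211 and 153 FPKM in 86-1 at 17 DAF and 18.1, 29.5 and 8.26 at 27 DAF. L-1-OL-1 held 63.7, 2.09 and 0.0345 FPKM at 17 DAF and 0.0421, 0 and 0.0455 at 27 DAF. Gene28061 had 33.4, 68.3 and 68.7, then 3.04, 6.86 and 0.504 FPKM in 86-1, and 22.8, 4.13 and 0.369, then 0.153, 0 and 0 in L-1-OL-1. For both genes replicate 1 of L-1-OL-1 at 17 DAF was far above the other 2 libraries of its group. At 17 DAF both were higher in 86-1, by 4.71 ± 1.09, adjusted p = 0.00678 for gene25753 and 3.32 ± 0.84, adjusted p = 0.011 for gene28061. Gene28061 fell in 86-1 (-3.92 ± 0.84, adjusted p = 0.00729) and in L-1-OL-1 (-2.39 ± 0.84, adjusted p = 0.0368), the latter a call lost without 86-1 27 DAF replicate 1 (adjusted p = 0.0519), L-1-OL-1 17 DAF replicate 1 or 2 (adjusted p = 0.117 and 0.0749) or L-1-OL-1 27 DAF replicate 1, 2 or 3 (adjusted p = 0.0709, 0.0841 and 0.0842). Gene25753 was also higher in 86-1 at 27 DAF (4.09 ± 1.09, adjusted p = 0.00846), and neither of its stage differences passed.

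Gene47746, the most abundant member of this class over the 12 libraries, stayed between 103 and 352 FPKM in all 12 libraries. It had 191, 259.6 and 197 FPKM in 86-1 at 17 DAF and 222, 281 and 254 at 27 DAF. In L-1-OL-1 it had 187, 167 and 103 FPKM at 17 DAF and 352, 325 and 311 at 27 DAF. It rose in L-1-OL-1 (1.15 ± 0.30, adjusted p = 0.00914). This rise was 0.81 with replicate 1 of L-1-OL-1 at 17 DAF as the only library of its group. The cultivar differences did not pass (0.53 ± 0.30, adjusted p = 0.223 at 17 DAF and -0.39 ± 0.30, adjusted p = 0.306 at 27 DAF), nor did the stage difference in 86-1 (0.23 ± 0.30, adjusted p = 0.678). Gene3644 and gene23529 also rose in L-1-OL-1. Gene3644 had 2.81, 3.83 and 6.85 FPKM there at 17 DAF and 11.2, 10.95 and 10.7 at 27 DAF (1.19 ± 0.28, adjusted p = 0.00587), against 1.89, 1.78 and 2.07 and 2.25, 3.79 and 4.29 in 86-1, and was lower in 86-1 at 27 DAF (-1.46 ± 0.28, adjusted p = 0.00116). Gene23529 had 0.2995, 0.376 and 10.96 FPKM at 17 DAF and 14.4, 23.5 and 13.4 at 27 DAF in L-1-OL-1 (2.66 ± 0.70, adjusted p = 0.00971), and 8.22, 12.8 and 13.3 and 8.53, 12.8 and 24.3 in 86-1. At 17 DAF the calls of gene3644 (-0.85 ± 0.28, adjusted p = 0.0436) and gene23529 (2.14 ± 0.70, adjusted p = 0.0398) were lost in 9 and 10 of the 12 fits without 1 library. Their highest adjusted p were 0.17 without replicate 3 and 0.168 without replicate 2 of L-1-OL-1 at 17 DAF. The call of gene3644 held without replicate 1 or 3 of 86-1 at 27 DAF or replicate 1 of L-1-OL-1 at 17 DAF, and that of gene23529 without replicate 3 of 86-1 at 27 DAF or replicate 3 of L-1-OL-1 at 17 DAF. Gene44210, gene44211 and gene44212, with neighbouring identifiers and 1 shared database match, stayed at or below 6.06 FPKM and were all listed at 0 in L-1-OL-1 at 27 DAF. Another 6 genes of the class reached at most 130.2 FPKM. Fragments of close relatives such as gene44210, gene44211 and gene44212 can be divided between them. The labels do not say how this was done, and list RSEM 1.2.12 among the tools without assigning it a step.

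The 7 glycolipid transfer proteins were at low levels, with at most 46.8 FPKM in any library. The most abundant was gene43560. It had 37.2, 46.8 and 42.8 FPKM in 86-1 at 17 DAF and 17.7, 24.05 and 15.5 at 27 DAF. Its values in L-1-OL-1 were 36.9, 14.1 and 11.2 FPKM at 17 DAF and 0.4102, 1.65 and 1.38 at the later stage. It fell in L-1-OL-1 (-3.21 ± 0.39, adjusted p = 9.23e-05) and was higher in 86-1 at 27 DAF (3.26 ± 0.39, adjusted p = 3.05e-05), where the groups did not overlap. Its stage difference in 86-1 did not pass (-1.12 ± 0.39, adjusted p = 0.0688), but passed without replicate 1 or 3 of L-1-OL-1 at 17 DAF (adjusted p = 0.0102 and 0.0452). The call at 17 DAF (1.17 ± 0.39, adjusted p = 0.0452) was lost in 10 of the 12 fits without 1 library, with the highest adjusted p = 0.175 without replicate 3 of L-1-OL-1 at 17 DAF, and held without replicate 1 of L-1-OL-1 at either stage. All 7 genes passed between the stages of L-1-OL-1, 6 lower and 1 (gene30707) higher at 27 DAF, and none passed in 86-1 (2 at an unadjusted p under 0.05). Over all tested genes 42.6% passed between the stages of L-1-OL-1 (22.3% lower), and 18.8% in 86-1. The call of gene30707 (0.78 ± 0.28, adjusted p = 0.0442), with at most 2.32 FPKM, was lost in 8 of the 12 fits without 1 library, with the highest adjusted p = 0.157 without replicate 1 of L-1-OL-1 at 27 DAF, and held without replicate 1 or 3 of 86-1 at 27 DAF, replicate 3 of L-1-OL-1 at 17 DAF or replicate 3 of L-1-OL-1 at 27 DAF. Those of gene56896 and gene80688 were lost without L-1-OL-1 17 DAF replicate 2 or 3 (adjusted p = 0.0969 and 0.0959) or L-1-OL-1 27 DAF replicate 1 or 2 (adjusted p = 0.0888 and 0.114) and without L-1-OL-1 17 DAF replicate 2 (adjusted p = 0.0626) or L-1-OL-1 27 DAF replicate 3 (adjusted p = 0.0622). These 3 genes are outside the rule for named genes and were chosen after their values were seen.

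**Figure D3:**
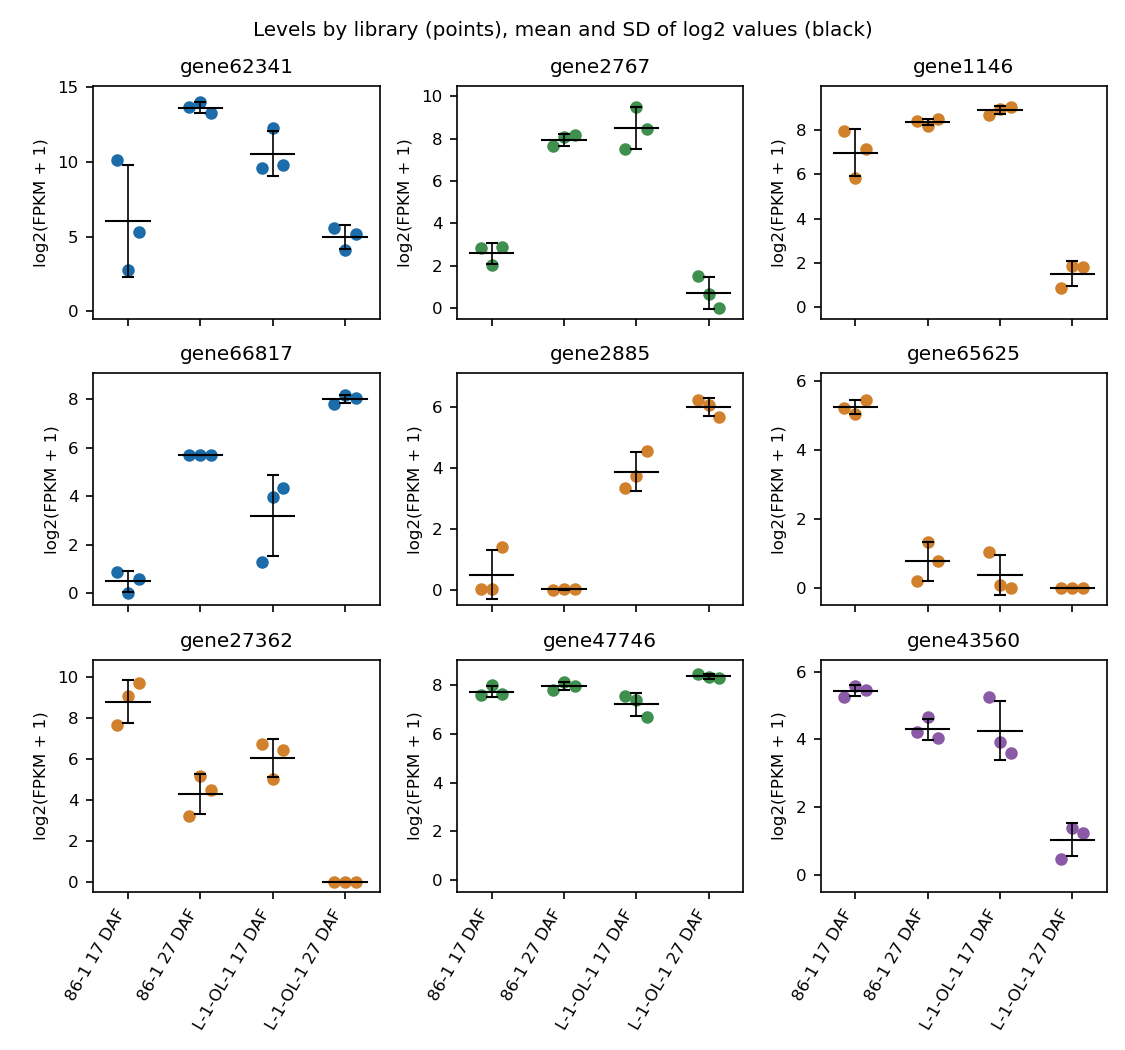
Points are single libraries, black lines the mean and SD of log2(FPKM + 1) in each group of 3 libraries, and the 9 panels are genes of the 4 classes. Gene2767 is high for 86-1 at 27 DAF and for L-1-OL-1 at 17 DAF and lower in the other groups. Gene62341 has its highest means in the same groups, but its groups overlap at 17 DAF. Replicate 1 of 86-1 (1104 FPKM) lies above replicates 1 and 3 of L-1-OL-1 there (770 and 875). Gene66817 and gene2885 peak in L-1-OL-1 at 27 DAF, and gene47746 stays within 103 to 352 FPKM.

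The comparison of the cultivars at 17 DAF asked which of the 50 genes differed while oleic acid was accumulating. Gene65625, gene25753, gene28061 and gene27362 were higher in 86-1, and gene2767, gene62340, gene2885 and gene69051 were lower. With replicate 1 of L-1-OL-1 at 17 DAF as the only library of its group, gene25753 differed by 1.26, against 4.71 with all libraries. In that fit gene28061 differed by 1.21 (3.32 with all), gene27362 by 2.08 (2.74) and gene62340 by -2.46 (-3.45). In all 27 of the 50 genes passed, 9 higher (gene12691 among them) and 18 lower (gene44211 among them) in 86-1. Over all 30020 tested genes 27% passed, 15.6% higher and 11.4% lower, so the genes lower in 86-1 formed a larger share of the 50 than of all genes. The median difference of the 50 genes was -0.64, beside 0.00 for all genes. In the Par allergen group 3 genes were higher and 8 lower, in the bifunctional inhibitor group 4 and 6, in the glycolipid transfer proteins 1 and 2 and in the non-specific lipid transfer proteins 1 and 2. Of the 27 calls 19 held in every fit without 1 library. Without replicate 1 of L-1-OL-1 at 17 DAF 8 genes were higher and 25 lower, and with that replicate as the only library of its group 5 and 6. Of all tested genes 19.2% were higher and 21.7% lower in the first of these fits and 7.22% and 5.33% in the second.

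At 27 DAF, once oleic acid held steady, most of the called differences pointed the other way. Gene62341, gene2767, gene1146, gene65618 and gene12526 were higher in 86-1, and gene2885, gene66817, gene79961, gene3644 and gene69216 were lower. In all 31 of the 50 genes passed, 25 higher (gene44211 among them) and 6 lower in 86-1. Of all tested genes 48.3% passed, 21.2% higher and 27.1% lower. The median difference was 1.46 for the 50 genes and -0.12 for all genes. By class 10 genes of the bifunctional inhibitor group were higher and 1 lower, 8 and 4 of the Par allergen group, 5 and 1 of the non-specific lipid transfer proteins and 2 and 0 of the glycolipid transfer proteins. The groups did not overlap for 36 of the 50 genes, the 31 called ones included, beside 64% of all tested genes (47.7% were both called and without overlap). Of the 31 calls 27 held in every fit without 1 library. Of the 18 genes lower in 86-1 at 17 DAF, 12 (gene44211 among them) were higher there at 27 DAF. That change of side was called in 0.973% of all tested genes. Among these 12, the 17 DAF calls of gene16996 and gene3251 were lost in 10 and 7 of the 12 fits without 1 library. The 17 DAF call of gene62341 was lost in the fits named above. Another 3 of the 18 genes (gene2885, gene3644 and gene66817) were lower at both stages.

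Between the stages of 86-1, the comparison asked what changed from fast to steady oleic acid. Gene62341, gene2767, gene66817, gene12526, gene69051 and gene62340 rose, and gene27362, gene65625, gene28061, gene59552 and gene41393 fell. In all 24 of the 50 genes passed, 14 higher and 10 lower at 27 DAF (gene12691 among the lower), beside 18.8% of all tested genes, of which 4.62% were higher and 14.1% lower. The median difference was 0.14 for the 50 genes and -0.20 for all genes. Of the Par allergen group 6 rose and 4 fell, of the bifunctional inhibitor group 6 and 3, and of the non-specific lipid transfer proteins 2 and 3. The count of 10 lower genes rested on single libraries. It was 4 without replicate 2 and 5 without replicate 3 of 86-1 at 17 DAF, and 4 without replicate 1 and 6 without replicate 2 of 86-1 at 27 DAF. In these 4 fits 6.31%, 7.04%, 7.25% and 9.45% of all tested genes were lower, against 14.1% with all libraries. The count of higher genes stayed between 12 and 17. With the libraries rescaled by median of ratios or by quantiles, which moved the median of all genes from -0.20 to -0.02 and 0.00, 18 genes were higher and 8 lower. Of all tested genes 9.76% were then higher and 11.9% lower by median of ratios, and 11.3% and 10.8% by quantiles.

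Between the stages of L-1-OL-1 the genes mostly fell. Gene2767, gene1146, gene65618, gene59552 and gene62341 had log2 differences of -7.77 to -5.56, and gene66817, gene23529, gene79961 and gene2885 rose by 2.11 to 4.81. In all 40 of the 50 genes passed, 8 higher and 32 lower at 27 DAF (gene44211 among the lower), and 42.6% of all tested genes passed, 20.4% higher and 22.3% lower. The median difference was -1.59 for the 50 genes and 0.00 for all genes. Genes fell in each class, 10 of 17 in the Par allergen group, 10 of 18 in the bifunctional inhibitor group, 6 of 7 glycolipid transfer proteins and 6 of 8 non-specific lipid transfer proteins. The count of lower genes was 34 without replicate 1 of L-1-OL-1 at 17 DAF and 18 with it as the only library of its group, where 25.1% and 17.2% of all tested genes were lower. In these whole seeds a smaller part of the tissue that expresses a gene and less of its RNA per cell cannot be told apart.

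The stage differences themselves differed between the cultivars for many of the genes. In 25 of the 50 genes the stage difference in 86-1 minus that in L-1-OL-1 passed, 21 of them positive and 4 negative, beside 22.1% of all tested genes, 8.5% positive and 13.6% negative. The median was 1.68 for the 50 genes and -0.23 for all genes. The largest positive values among genes with no group listed at 0 belonged to gene62341 (13.17 ± 1.98, adjusted p = 0.00109), gene2767 (13.15 ± 0.70, adjusted p = 2.8e-06) and gene1146 (8.75 ± 0.64, adjusted p = 1.51e-05). The negative ones were those of gene2885 (-2.59 ± 0.56, adjusted p = 0.00785) and gene79961 (-1.90 ± 0.49, adjusted p = 0.0171), for which the rise passed in L-1-OL-1 and not in 86-1, and of gene65625 (adjusted p = 0.000195), which fell from 17 DAF in 86-1 and was listed at 0 for L-1-OL-1 at 27 DAF. The count of 25 also holds gene44211 among the positive and gene12691 among the negative values. Of the 50 genes 11 rose in 86-1 and fell in L-1-OL-1, both past the threshold, among them gene62341, gene2767, gene69051, gene35122 and gene44205. Over all tested genes 0.69% did so. Among the 11, gene61892 and gene63982 lost the rise in 86-1 in some fits without 1 library, and gene63982 also the fall in L-1-OL-1. Another 7 genes fell in both cultivars (6.23% of all genes), gene66817 alone rose in both (1.67%), and none fell in 86-1 while rising in L-1-OL-1 (0.583%). Of the 7, gene20108, gene41393, gene59541, gene59552 and gene65618 lost the fall in 86-1 in some fits without 1 library. Gene28061 and gene59541 lost that in L-1-OL-1. Gene20108, gene59541 and gene63982 are outside the rule for named genes and are named here for their lost calls. Of the 25 calls 21 held in every fit without 1 library, and without replicate 1 of L-1-OL-1 at 17 DAF 27 genes were positive and 6 negative, beside 14.9% and 16.4% of all tested genes.

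**Figure D4:**
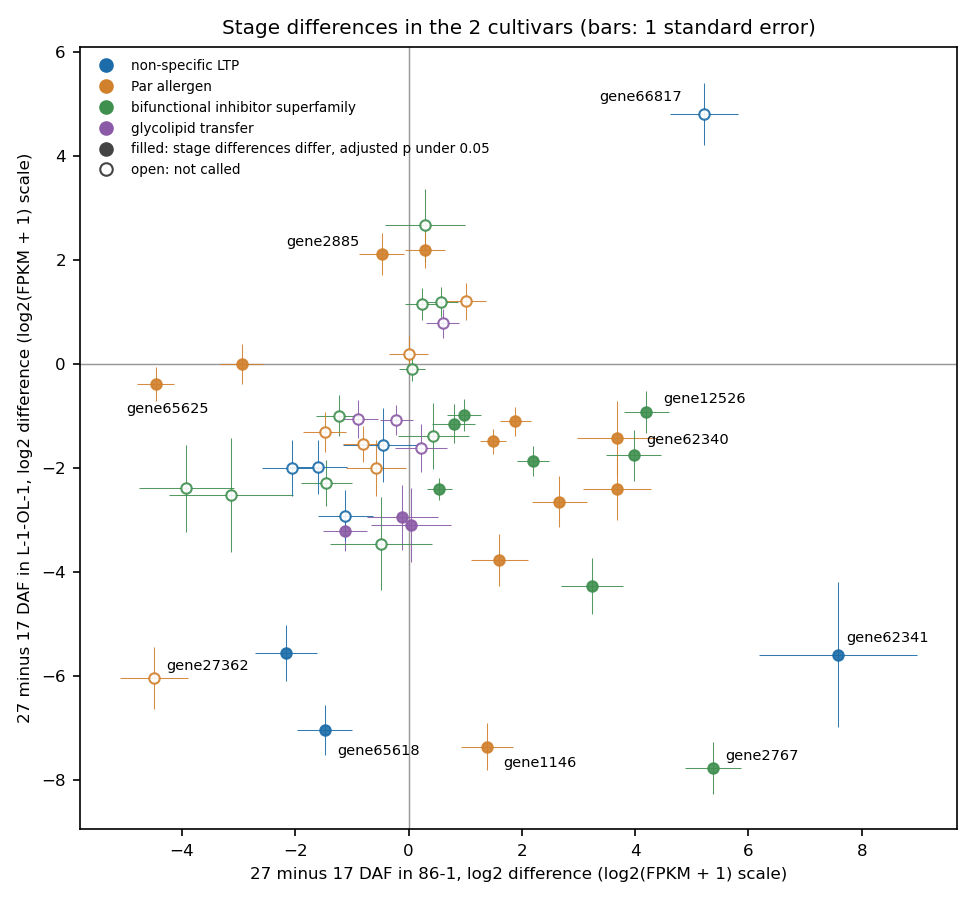
Each point is 1 of the 50 genes, with the log2 difference of 27 minus 17 DAF in 86-1 on the horizontal and in L-1-OL-1 on the vertical axis and bars of 1 standard error; genes listed at 0 in a group are drawn at their fitted value. Filled points, where the 2 stage differences differed, lie mostly in the lower right, with gene62341 at 7.58 and -5.59 and gene2767 at 5.38 and -7.77, while gene66817 lies at the upper right (5.21 and 4.81).

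Genes for stored protein, oil bodies and the cuticle were set beside the 50 genes by counts and medians only. Over all tested genes the median was -0.12 between the cultivars at 27 DAF, -0.20 between the stages in 86-1 and 0.00 in L-1-OL-1. Of all tested genes 21.2% were higher and 27.1% lower in 86-1 at 27 DAF. Between the stages 4.62% rose and 14.1% fell in 86-1, and 20.4% rose and 22.3% fell in L-1-OL-1. Several counts of these lists lie near those shares. Of 53 tested seed albumins and globulins, which are stored as food for the seedling, 27 were higher and 6 lower in 86-1 at 27 DAF (median 1.36), and 5 rose and 26 fell in L-1-OL-1 (median -1.67). In 86-1 3 rose and 3 fell (median 0.09). Of 24 tested oil body proteins, which coat the droplets of stored oil, 9 rose and 1 fell in 86-1 (median 0.88), and 7 rose and 5 fell in L-1-OL-1 (median 0.04). Of 24 tested genes of cuticle and wax synthesis, the pathway whose products lipid transfer proteins are known to carry, 2 rose and 4 fell in 86-1 (median 0.34). In L-1-OL-1 1 rose and 8 fell (median -0.88), and at 27 DAF 8 were higher and 2 lower in 86-1 (median 0.53). The 51 described cuticle and wax genes took 0.02001% to 0.0485% of the FPKM total over all libraries, with overlapping ranges in all 4 groups.

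Markers of other tissues also differed between the groups. A list for hull and secondary wall held 74 genes described as laccase, cellulose synthase A, fasciclin-like or irregular xylem proteins or as lignin enzymes. These words do not name hull itself. The 74 genes took 0.109% to 0.178% of the total in 86-1 at 17 DAF and 0.0529% to 0.0757% at 27 DAF. In L-1-OL-1 they took 0.0572% to 0.124% and then 0.0249% to 0.0422%. Of the 74 genes 45 were tested. Between the stages of L-1-OL-1 1 of the 45 rose and 20 fell, and in 86-1 3 rose and 14 fell. Over all tested genes 20.4% rose and 22.3% fell in L-1-OL-1, and 4.62% rose and 14.1% fell in 86-1. Between the cultivars 19 of the 45 were higher and 12 lower in 86-1 at 17 DAF (median difference 0.36), and 22 and 6 at 27 DAF (median 0.73), where 15.6% and 11.4% of all genes at 17 DAF and 21.2% and 27.1% at 27 DAF were so. Of 63 tested genes of green tissue 3 rose and 18 fell in L-1-OL-1, with shares of 0.0224%, 0.154% and 0.168% in the libraries at 17 DAF and 0.0402% to 0.0797% at 27 DAF. In 86-1 3 of the 63 rose and 1 fell, with shares of 0.0187% to 0.0320% and then 0.0310% to 0.0678%. Against L-1-OL-1, 2 of the 63 were higher and 14 lower in 86-1 at 17 DAF (median difference -1.47), and 5 were higher and 3 lower at 27 DAF (median 0.29). The 74 described seed albumins and globulins took 31.8%, 18.5% and 0.888% in the libraries of L-1-OL-1 at 17 DAF and 0.833% to 2.72% at 27 DAF. In 86-1 they took 9.47% to 31.9% at 17 DAF and 10.4% to 34.5% at 27 DAF. Of 15 tested genes named for pollen or anther 1 rose and 3 fell in 86-1, and 2 rose and 7 fell in L-1-OL-1. Of the same 15, 6 were higher and 2 lower in 86-1 at 17 DAF (median difference 0.37), and 9 and 1 at 27 DAF (median 0.90). The 27 described pollen or anther genes took 0.0769% to 0.114% of the total in 86-1 at 17 DAF and 0.0609% to 0.0761% at 27 DAF. L-1-OL-1 held 0.0695% to 0.0861% at 17 DAF, and 0.0397%, 0.194% and 0.315% in replicates 1, 2 and 3 at 27 DAF. Only 2 genes were named for endosperm or seed coat, and both stayed below 1 FPKM in all libraries. The part of these tissues in the differences of the 50 genes was not tested.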

How the data were processed

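RNA was extracted from 12 seed samples with the RNAprep pure Plant kit and sequenced on an Illumina NovaSeq instrument, per the labels' protocols. The authors deposited 1 table of FPKM, in which length and library size are already divided out, and its 12 value columns were matched to samples by name (0 columns left over). Per the submitters' processing notes the tools were RSEM 1.2.12, Bowtie2 2.2.5, DESeq2 1.4.5 and HISAT2 2.0.4, with no step assigned to any. Which build, annotation or filter was used: not given in the sources used here. A second deposited table pairs genes with the description of their best protein match. It ends at line 65535, a limit of some spreadsheet formats, so genes may lack a description for that reason. The alignment score in that table, as the authors deposited it, was not used. Genes are named by the deposited identifiers, and no sequences or coordinates are printed.

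FPKM are not counts, so limma 3.58.1 in R 4.3.3 was fitted to log2(FPKM + 1) of all 30020 genes with at least 1 FPKM in at least 3 libraries, with a mean per group, 1 shared spread and a mean-variance trend. P-values are 2-sided and adjusted by Benjamini-Hochberg over these genes, and called at 0.05 whatever the fold. The fit was tested on simulated data. Against a group in which all libraries are listed at 0, only the p-value is given. With 3 libraries a group the spread is poorly known, and depth is unknown, so no counting interval is given. Classes and lists follow words in the descriptions; the words seed storage 2S albumin superfamily were read as a superfamily name. Named genes are the 12 with the highest mean; per contrast the 6 largest called differences in each direction with a mean of at least 5 FPKM in the higher group, and 4 in each direction for the difference of stage differences; and the highest of any class not yet named. The genes, lists and tests were chosen with earlier results of these data known. Alternatives were another pseudocount (0.1), no filter, a mean of at least 5 FPKM, 2 scalings, no trend, a replicate block, fits of 6 libraries, and fits without single libraries or without 2 of L-1-OL-1 at 17 DAF.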

Additional observations from a re-analysis of the deposited data

Results flagged for a closer look

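The stage difference in 86-1 was tested against that in L-1-OL-1 by an interaction term in limma, and the 8 named genes with the largest effects in either direction are given for a closer look because the cultivars differed. Gene62341 rose in 86-1 and fell in L-1-OL-1 (13.17 ± 1.98, adjusted p = 0.00109), without overlap of stages in either cultivar. Gene2767 did the same (13.15 ± 0.70, adjusted p = 2.8e-06). Gene1146 fell in L-1-OL-1, while its change in 86-1 did not pass (8.75 ± 0.64, adjusted p = 1.51e-05 for the difference of the stage differences). Gene35122 rose in 86-1 and was listed at 0 in L-1-OL-1 at 27 DAF (adjusted p = 0.000105). Gene65625 fell in 86-1 and had 1.08, 0.0715 and 0 FPKM in L-1-OL-1 at 17 DAF and 0 in all 3 libraries at 27 DAF (adjusted p = 0.000195). Gene12691 was listed at 0 throughout L-1-OL-1 (adjusted p = 0.00324); it reached the FPKM minimum through 86-1 at 17 DAF alone, which favours this difference, so the value supports nothing. Gene2885 rose in L-1-OL-1 and was at most 1.68 FPKM in 86-1 (-2.59 ± 0.56, adjusted p = 0.00785). Gene79961 rose in L-1-OL-1, and its change in 86-1 did not pass (-1.90 ± 0.49, adjusted p = 0.0171). The calls of the 7 genes other than gene12691 held in each of the 12 fits without 1 library.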

How the results depend on the processing

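Of 147 calls of the 50 genes over the 5 comparisons, 115 held in each of the 12 fits without 1 library. For 88 of the 147 the call was not lost under any setting in which it was fitted. Genes with a mean below 5 FPKM were not fitted under that minimum. The difference of stage differences was not fitted with only 6 libraries. The range of the counts over the 12 fits without 1 library was 7 to 9 genes higher and 12 to 25 lower in 86-1 at 17 DAF, and 23 to 28 higher and 4 to 6 lower at 27 DAF. Between the stages it was 12 to 17 higher and 4 to 13 lower in 86-1 and 6 to 8 higher and 27 to 34 lower in L-1-OL-1, and 17 to 27 positive and 4 to 6 negative for the difference of the stage differences. The shares of all tested genes moved too over these fits. At 17 DAF 10.1% to 19.2% were higher and 8.02% to 21.7% lower in 86-1, and at 27 DAF 17.2% to 24.3% and 20.1% to 30.3%. Between the stages 2.84% to 6.61% were higher and 6.31% to 21.2% lower in 86-1, and 14.6% to 24.7% and 16.5% to 25.1% in L-1-OL-1. For the difference of the stage differences 5.58% to 14.9% were positive and 7.83% to 18.2% negative. With replicates 2 and 3 of L-1-OL-1 at 17 DAF left out, where the remaining library is assumed to vary like the other groups, 5 genes were higher and 6 lower in 86-1 at 17 DAF and 18 were lower at 27 DAF in L-1-OL-1. With only genes of a mean of at least 5 FPKM, 33 of the 50 genes were tested. Of these 11 were lower in 86-1 at 17 DAF, beside 7.07% of all genes tested there. In 86-1 8 rose and 6 fell between the stages, beside 5.25% and 13.3%. In fits of the 6 libraries compared, 10 of the 50 genes were lower in 86-1 at 17 DAF and 5 rose in L-1-OL-1. Of all tested genes 7.8% and 15.4% did so. Fewer samples give the spread in these fits.

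Over genes, the r of deviations from the group means ran from -0.226 to 0.459 for same-numbered libraries of different groups. For differently numbered libraries it ran from -0.43 to 0.299. The labels do not say what a number marks. With 3 libraries a group these values cannot tell whether the numbers mark pairs. With a replicate block 8 genes were higher and 17 lower in 86-1 at 17 DAF (16% and 12.2% of all tested genes). At 27 DAF 26 were higher and 6 lower (22.6% and 30.1%). Between the stages 14 rose and 12 fell in 86-1 (5.08% and 16.7%), and 7 rose and 33 fell in L-1-OL-1 (23.3% and 24.2%). Of the differences of stage differences 24 were positive and 4 negative (9.81% and 17.4%). Median-of-ratios scaling moved the median of all genes at 27 DAF from -0.12 to 0.07, in 86-1 from -0.20 to -0.02 and for the difference of stage differences from -0.23 to -0.02; 18 of the 50 genes then rose and 8 fell in 86-1. Quantile normalization moved that in 86-1 to 0.00 and gave the same split of 18 and 8. None of the 147 called differences changed direction. Among differences that did not pass, that of gene47746 at 27 DAF turned to 0.077 with quantile normalization. That of gene66817 between the stage differences was 1.36 without replicate 1 of L-1-OL-1 at 17 DAF, and turned to -0.16 without replicate 3 and to -1.50 without replicates 2 and 3, the first and last past the threshold. The causes were not tested.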

Other observations

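Genes that share a database match did not always share a level. Gene8283 and gene30241, glycolipid transfer proteins with 1 match at 100% identity over 229 residues, were close to equal in the 3 libraries of L-1-OL-1 at 17 DAF, with ratios of gene8283 to gene30241 of 1.12, 1.05 and 1.06, followed by 0.972, 0.982 and 0.829 at 27 DAF. In 86-1 the ratios were 0.721, 0.287 and 0.216 at 17 DAF and 0.397, 0.423 and 0.606 at 27 DAF. Gene2885 and gene69216, of the Par allergen group, had ratios of 2.198, 1.68 and 1.54 for L-1-OL-1 at 17 DAF and 4.76, 3.59 and 2.05 at 27 DAF, while gene2885 stayed at or below 0.0331 FPKM in 5 of the 6 libraries of 86-1. Gene44212 exceeded gene44211 by 6.64-, 8.56- and 6.34-fold in 86-1 at 27 DAF and was below it in L-1-OL-1 at 17 DAF, with ratios of 0.470, 0.855 and 0.553. These ratios were chosen after the values were seen and were not tested, and reads of close relatives can be divided between them.

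Replicate 1 of 86-1 at 17 DAF differed from the other 2 libraries of its group in several abundant genes. It held 1104 FPKM of gene62341 against 5.68 and 38.6, 375 of gene62340 against 35.4 and 141, and 12.9 of gene8283 against 1.83 and 0.659. In the same library gene27362 was lowest of its group, at 198 FPKM against 526 and 817. Among the L-1-OL-1 libraries of 17 DAF gene55809 had 4.81, 54.9 and 130.2 FPKM and gene42841 2.73, 9.57 and 32.8; neither gene had a called difference between the cultivars at either stage.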
